A study of Homo sapiens with 10 samples.

Results

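The cyclins and cyclin-dependent kinases examined here were 10 genes: the cyclin genes CCND1, CCNE1, CCNA2, CCNB1 and CCNB2, the kinase genes CDK1, CDK2, CDK4 and CDK6, and CDC20, an activator of the ligase that destroys mitotic cyclins. They were taken from a fixed list of names, and all 10 were found among 19821 protein-coding genes of RefSeq GRCh38 on chromosomes 1 to 22 and X. A peak was counted for a gene if any base lay within 1 kb of either annotated gene end, and as a body peak if it lay between those windows. The data were CUT&Tag, in which an antibody brings a transposase to chromatin so that DNA beside the target is cut and tagged. The cells were HCT116, an established human colorectal carcinoma line, labelled WT, with no treatment named and 100000 to 200000 cells per replicate. The 10 samples comprised 3 for POLR1A (a catalytic subunit of RNA polymerase I), 3 for POLR2A (its counterpart in RNA polymerase II), 3 for H3K9me3 (a histone mark of heterochromatin) and 1 for H3K4me3 (a histone mark of active promoters). Per the labels, replicates were prepared on different days from newly thawed aliquots of the line.

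Each target had 1 deposited peak list, so values are given without replicate error and no comparison between conditions could be tested. The lists held 3812 POLR1A, 19997 POLR2A, 17181 H3K4me3 and 16414 H3K9me3 peaks on the chromosomes used, and read depth is unknown from such lists. Fold enrichment is the authors' own linear ratio for a peak and was compared only within its list. Epithelial markers had POLR2A more often than leukocyte or fibroblast markers. Of 12 epithelial and colorectal marker genes 9 had POLR2A at an end, against 41.3% of all protein-coding genes. Among them were EPCAM (12.5), KRT19 (11.3) and CDX2 (6.36), while KRT20, VIL1 and LGR5 had none. Of 8 leukocyte markers only CD14 had POLR2A (2.75), and of 8 fibroblast markers only ACTA2 (5.26). H3K4me3 was at 9 of the 12, against 54.6% of all protein-coding genes. Of the leukocyte markers CD4 (5.95) had it, and of the fibroblast markers COL1A1 (8.87) and ACTA2 (13.5). ACTA2 also had POLR1A (3.61).

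Cyclins are the regulatory partners that switch on cyclin-dependent kinases, and their abundance rises and falls through the cell cycle. Cyclin D with CDK4 or CDK6 starts the inactivation of the RB protein in G1, cyclin E with CDK2 drives entry into S phase, cyclin A acts in S and G2, and cyclin B with CDK1 drives mitosis. CDC20 then directs the anaphase-promoting complex (APC/C) to cyclin B and securin. Promoters of the mitotic genes are known for CCAAT boxes, bound by NF-Y, and for the cell cycle genes homology region (CHR), an element read by the DREAM and MYB-MuvB complexes. RNA polymerase II transcribes all of these genes, and RNA polymerase I is known for transcribing ribosomal RNA genes.

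The promoters of 6 of the genes are shown first: CDK4, CCNB1 and CDC20, which had both polymerases over them, and, for contrast, the S phase and mitotic genes CCNB2, CDK1 and CCNA2, which had POLR2A without POLR1A. POLR2A without POLR1A also lay over promoter windows of CCNE1 and CDK6, which are not printed. Each line gives the 250 bases before an annotated start, 5′ to 3′ in the direction of transcription, from the RefSeq promoter table (GRCh38.p14). Capitals mark matches to the CHR (TTTGAA), the CCAAT box (CCAAT), E2F sites (TTTCCCGC, TTTCGCGC, TTTGCCGC or TTTGGCGC) and the E-box (CACGTG, the element read by MYC), each sought on both strands. The intervals are chr12:57752311-57752560 (minus strand) for CDK4, chr5:69166900-69167149 (plus) for CCNB1, chr1:43358731-43358980 (plus) for CDC20, chr15:59104896-59105145 (plus) for CCNB2, chr10:60778228-60778477 (plus) for the downstream of the 2 annotated CDK1 starts, and chr4:121823884-121824133 (minus) for CCNA2.
CDK4: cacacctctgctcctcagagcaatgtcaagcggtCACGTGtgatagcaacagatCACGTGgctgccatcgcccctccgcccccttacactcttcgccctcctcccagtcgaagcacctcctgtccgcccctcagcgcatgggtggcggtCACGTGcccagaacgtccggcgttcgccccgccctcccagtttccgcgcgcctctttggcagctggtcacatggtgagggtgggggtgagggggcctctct
CCNB1: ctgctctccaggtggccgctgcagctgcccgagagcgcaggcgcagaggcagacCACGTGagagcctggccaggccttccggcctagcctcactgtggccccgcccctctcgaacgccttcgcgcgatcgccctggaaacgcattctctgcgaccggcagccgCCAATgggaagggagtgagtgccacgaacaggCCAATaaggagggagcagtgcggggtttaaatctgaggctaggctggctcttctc
CDC20: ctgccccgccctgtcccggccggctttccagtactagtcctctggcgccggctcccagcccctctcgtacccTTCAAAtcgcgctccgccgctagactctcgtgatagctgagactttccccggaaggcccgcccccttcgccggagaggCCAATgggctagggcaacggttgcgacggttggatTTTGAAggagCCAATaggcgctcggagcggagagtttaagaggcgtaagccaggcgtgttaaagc
CCNB2: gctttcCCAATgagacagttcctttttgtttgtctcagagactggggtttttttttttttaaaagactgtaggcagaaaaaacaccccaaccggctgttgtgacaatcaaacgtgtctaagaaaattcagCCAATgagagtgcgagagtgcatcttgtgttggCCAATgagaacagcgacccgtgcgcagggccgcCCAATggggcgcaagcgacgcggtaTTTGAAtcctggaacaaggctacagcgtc
CDK1: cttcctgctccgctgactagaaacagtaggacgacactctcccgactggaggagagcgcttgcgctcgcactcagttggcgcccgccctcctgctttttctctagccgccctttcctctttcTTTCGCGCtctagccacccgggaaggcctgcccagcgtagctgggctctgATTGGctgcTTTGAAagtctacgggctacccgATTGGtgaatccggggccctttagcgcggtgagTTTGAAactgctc
CCNA2: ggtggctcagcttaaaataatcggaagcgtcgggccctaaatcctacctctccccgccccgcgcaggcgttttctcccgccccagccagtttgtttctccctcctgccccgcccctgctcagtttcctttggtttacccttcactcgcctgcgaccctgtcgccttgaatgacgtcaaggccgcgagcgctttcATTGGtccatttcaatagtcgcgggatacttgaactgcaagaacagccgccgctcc

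POLR2A was found at an end of 9 of the 10 genes, all but CDK6, where 41.3% of all protein-coding genes had it. H3K4me3 was at an end of 10 of 10, against 54.6% of genes. POLR1A was at an end of 4 of 10, CDK4, CCNB1, CDC20 and CDK2, against 11.2%. All 4 carried POLR2A at the same end (10.7% of genes) and H3K4me3 as well (10.6%). H3K9me3 was at the ends of 0 of 10, where 2.7% of genes had it, and in the body of 0 of 10, where 12.3% had it. In 10 genes, a count of 0 is near either share. The body share covers genes of every length, while all of the 10 but CDK6 are only 4.22 to 19.9 kb long. For the 8 genes whose strand the promoter table gives, which excludes CCND1 and CDK2, the 5′ end had POLR1A in 3 (11.2% of 15813 such genes), POLR2A in 7 (41.5%) and H3K4me3 in 8 (55.4%).

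**Figure D1:**
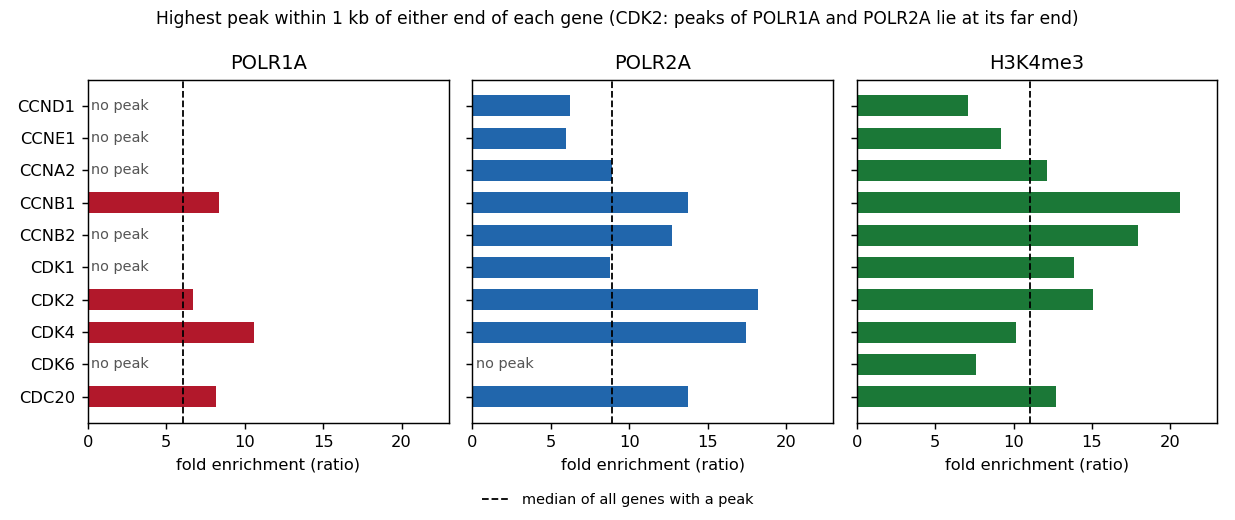
Highest fold enrichment (a linear ratio, horizontal axis) of the POLR1A, POLR2A and H3K4me3 peaks within 1 kb of either end of each of the 10 genes. Bars are single deposited values without replicate error, dashed lines are the medians of all protein-coding genes with a peak (6.08, 8.87 and 11.05), and bars should be compared within a panel only. The 4 POLR1A bars all pass the dashed line, and the POLR1A and POLR2A bars of CDK2 come from its far end.

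CDK4, the kinase partner of D-type cyclins, had the highest POLR1A value of the 10. Its gene spans chr12:57747727-57752310 and is read from the higher coordinate. The POLR1A peak, chr12:57752326-57752679, had a fold enrichment of 10.6 and a −log10 q of 18.3, and ranked 209 of 3812 in its list. Among genes with POLR1A at an end, 3.43% had a value as high. The POLR2A peak, chr12:57752115-57752673, had a value of 17.5 and ranked 597 of 19997. Both summits lay just before the start, by 170 bp for POLR1A and 162 bp for POLR2A. H3K4me3 at this end had a value of 10.1, below the median of 11.05 over all genes with it, in a peak 1406 bp wide. The 3 E-boxes, 216, 196 and 101 bases before the start, all lay inside the POLR1A, POLR2A and H3K4me3 peaks. No other gene end lay within 1 kb of the polymerase peaks, so at this distance they belonged to CDK4 alone. At the other end, TSPAN31 overlaps CDK4. A weaker POLR2A peak there (6.99) had its summit 2746 bp outside CDK4. It covered an end of TSPAN31, as did an H3K4me3 peak (6.66), and neither was counted.

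CDK6, the other partner of D-type cyclins, was arranged differently. It is the longest of the genes (231.7 kb, chr7:92604921-92836573) and the only one with no POLR2A peak within 1 kb of an end. The promoter table lists 2 starts, at 92836573 and 92833959. A POLR2A peak of 6.07, chr7:92833597-92834184, covered 91.7% of the promoter window of the inner start. A wide H3K4me3 peak of 7.57, chr7:92833522-92836181, covered the whole of that window and began 392 bp inside the outer start. Another 5 POLR2A peaks lay further along the body, with values of 10.2, 2.77, 4.77, 5.51 and 2.72 at 72771, 104342, 140805, 190685 and 201324 bp from the outer start. The one at 140805 bp overlapped an H3K4me3 peak of 6.42. In the same order, the −log10 q of these 5 POLR2A peaks was 13.3, 1.32, 3.34, 4.52 and 1.11. That of the POLR2A peak at the inner start was 5.57. With 6 body peaks, the one at the inner start included, CDK6 stood high among the 2868 genes between 100 and 400 kb. Their median was 1 POLR2A body peak, and 2.27% had 6 or more. This standing counted every listed peak, weak ones included. It was not recomputed without the peak at the inner start, or with only peaks of a −log10 q of at least 5. No POLR1A or H3K9me3 peak was found anywhere in the gene.

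**Figure D2:**
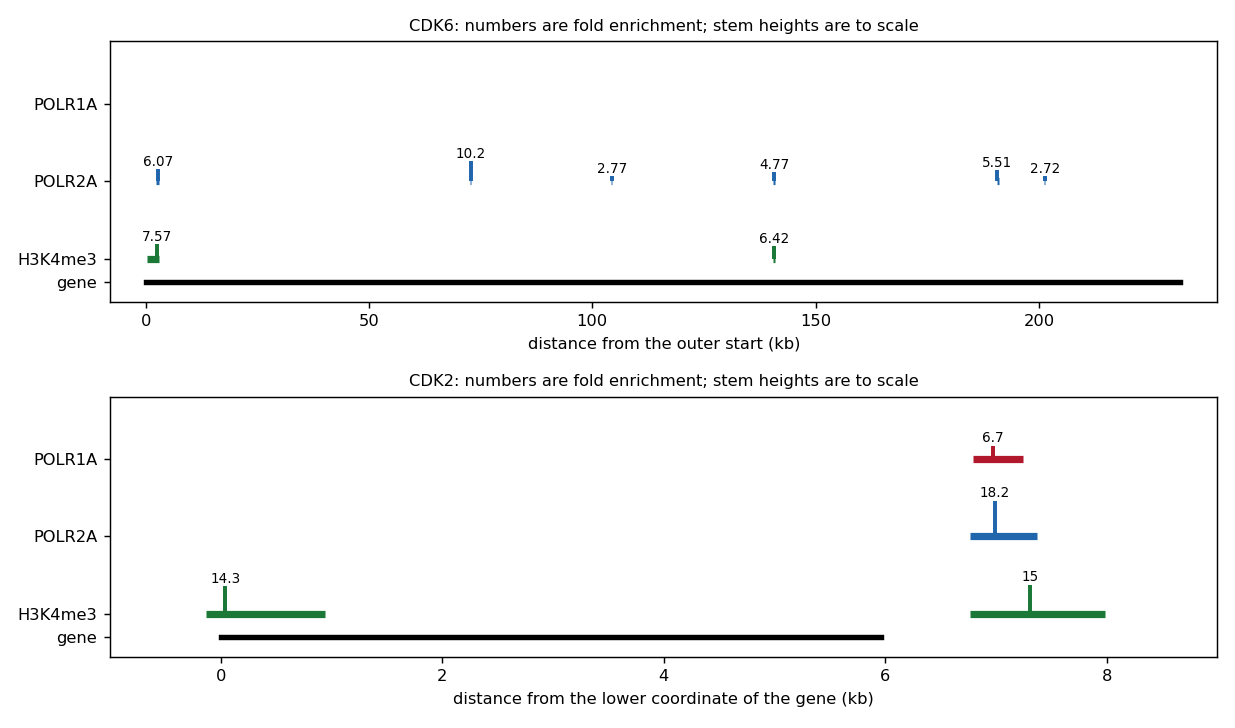
Peaks along CDK6 (top, distance from the outer start in kb) and CDK2 (bottom, distance from the lower coordinate in kb). Horizontal bars are peaks, stems stand at summits with heights and printed numbers giving fold enrichment, and the black line is the gene. In CDK6 POLR2A peaks were spread along the body from 2773 to 201324 bp, and in CDK2 both polymerases lay beyond the far end.

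CCND1, which encodes cyclin D1, had low values of every target it carried. At the lower end of the gene (chr11:69641156-69654474) a narrow POLR2A peak of 158 bp had a value of 5.89, and an H3K4me3 peak had 7.11, exceeded or equalled by 87.4% of genes with that mark. At the upper end stood a POLR2A peak of 6.23, with its summit 118 bp past the annotated end and without H3K4me3. POLR2A at both ends was found in 2.85% of genes and in 1 of the 10 here. A further POLR2A peak of 4.76, with its summit 2026 bp below the gene, lay outside the window. The POLR2A and H3K4me3 peaks at the lower end began at the same base, 69641096. No POLR1A peak was present.

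CCNE1, which encodes cyclin E1 and partners CDK2, had POLR2A at its start (chr19:29811766-29811893) with a value of 6.0 and a width of 128 bp, the narrowest of these peaks. Its H3K4me3 peak, with a value of 9.17, began 562 bp inside the gene, so that the 2 peaks shared no base. That was the case at 3.99% of the 6384 gene starts with both targets. CCNE1 had no POLR1A peak, and its promoter window was the richest in G and C of the set (81%, against a median of 62.3% over 22140 promoter windows).

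CDK2 met the criterion for POLR1A through a neighbour's promoter. At the lower end of CDK2 (chr12:55966830-55972789) stood an H3K4me3 peak of 14.3 with its summit 41 bp inside the gene, and no peak of either polymerase. Of gene ends with H3K4me3, 30.2% likewise had no POLR2A. This H3K4me3 peak also covered an end of PMEL, a pigment cell gene. Beyond the upper end of CDK2, the POLR1A peak chr12:55973626-55974078 (6.70), the POLR2A peak chr12:55973592-55974204 (18.2) and an H3K4me3 peak (15.04) all covered an end of RAB5B, which encodes an endosomal GTPase. Their summits lay 1012, 1033 and 1352 bp past the end of CDK2. When the summit itself had to lie within 1 kb, CDK2 lost both polymerases, and POLR1A was at an end of 3 of the 10 genes and POLR2A at 8. The shares of all protein-coding genes by this summit rule were not computed. The same 3 genes with POLR1A, CDK4, CCNB1 and CDC20, were those with it at the 5′ end.

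CCNA2, which encodes cyclin A2, had 2 POLR2A peaks at its start (gene chr4:121816444-121823883, read from the higher coordinate). The stronger, chr4:121823824-121824124, had a value of 8.88, equal in rank to the middle of all genes with POLR2A (50% had a value as high), and its summit lay 135 bp before the start. The weaker (4.70) had its summit 470 bp inside the gene. The H3K4me3 value was 12.1. BBS7, a ciliary gene, has an end 205 bp from the stronger peak, so this peak cannot be assigned to CCNA2 alone. The CCAAT match, 56 bases before the start, lay inside the POLR2A and H3K4me3 peaks. No POLR1A peak was found.

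The cyclin B genes are close relatives in function but differed in POLR1A. CCNB1 (chr5:69167150-69178245) had a POLR1A peak of 8.38, chr5:69166903-69167127, ranked 527 of 3812. Its POLR2A peak of 13.7, chr5:69166855-69167127, ended at the same base, and the summits were 1 bp apart, 163 and 164 bp before the start. Its H3K4me3 value of 20.6 was the highest of the 10 genes and ranked 136 of 17181, and 0.979% of genes with the mark had a value as high. Both CCAAT matches, 87 and 55 bases before the start, and the E-box at 196 bases lay inside the POLR1A peak. CCNB2 (chr15:59105146-59125045) had a POLR2A value of 12.7 and an H3K4me3 value of 18.0, ranks 2073 and 555 in their lists, and no POLR1A peak. Its POLR2A peak was 693 bp wide, the widest POLR2A peak at these gene ends, against 273 bp at CCNB1. The CHR, 29 bases before the start, and 3 of the 4 CCAAT matches (120, 87 and 54 bases before it) lay inside the POLR2A peak. The difference in POLR1A between the cyclin B genes rests on 1 peak in 1 list and was not tested.

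CDK1 (chr10:60778331-60794852), the kinase that cyclin B activates, had a POLR2A peak of 8.75, chr10:60778178-60778487, which covered 67.7% of the promoter window of its outer start and 86.7% of that of the inner start at 60778478. The H3K4me3 value was 13.9, with the summit 582 bp inside the gene. The CHR matches 69 and 13 bases before the inner start, the CCAAT matches at 78 and 46 bases and the E2F match at 128 bases lay inside the POLR2A peak. Neither POLR1A nor H3K9me3 was found.

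CDC20 (chr1:43358981-43363203) had POLR1A over its whole 300-base promoter window. The POLR1A peak, chr1:43358723-43359056, had a value of 8.14 and ranked 589 of 3812. The POLR2A peak, chr1:43358712-43359058, had a value of 13.8 and covered all of the POLR1A peak. The summits were 95 bp apart, the greatest distance among the 4 shared sites. H3K4me3 had a value of 12.7 in a peak of 1672 bp, the widest of the 10 after that of CDK6. The CHR matches 178 and 65 bases before the start and the CCAAT matches at 100 and 55 bases lay inside both polymerase peaks. Both polymerase peaks crossed the start of CDC20. The non-coding gene CDC20-DT has an end 50 bp from the POLR1A peak, so these peaks cannot be assigned to CDC20 alone.

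**Figure D3:**
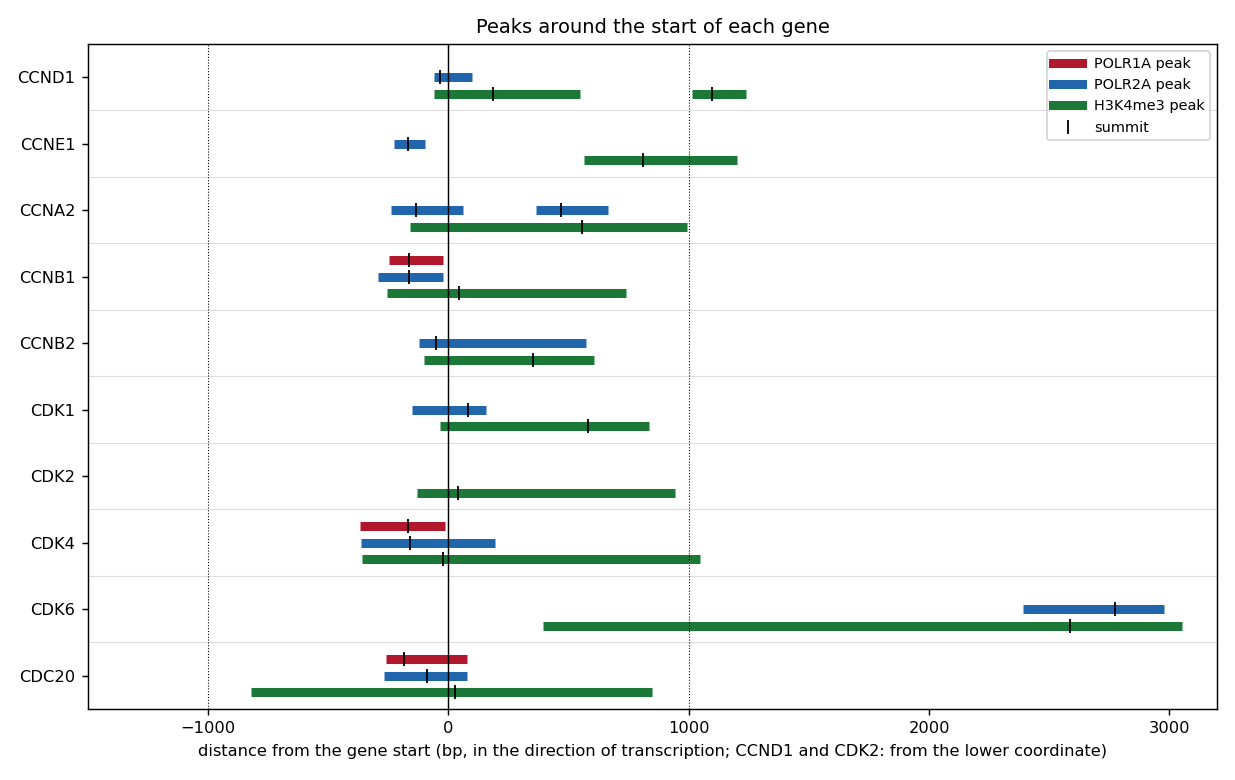
Peaks of POLR1A, POLR2A and H3K4me3 around the start of each of the 10 genes (horizontal axis, distance in bp along the direction of transcription, for CCND1 and CDK2 from the lower coordinate). Thick bars are peaks, ticks are summits and dotted lines mark 1 kb on each side. At CCNB1, CDK4 and CDC20 the POLR1A bar lies over the POLR2A bar just before the start, at CCNE1 POLR2A and H3K4me3 are apart, and at CDK6 both lie at the inner start.

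At the 4 shared sites POLR2A covered 100% of the POLR1A peak at CCNB1, CDC20 and CDK2 and 98.3% at CDK4. Overlap as such was the rule, since the peaks overlapped at 98.3% of all genes with both polymerases at the same end. Summit distances were 1 bp at CCNB1, 8 bp at CDK4, 21 bp at CDK2 and 95 bp at CDC20, where the 2114 genes with both polymerases at an end had a median of 63 bp (quartiles 20 and 136). The POLR1A summits at CCNB1, CDK4 and CDC20 lay 163, 170 and 184 bp before the start. Over the 1776 genes with POLR1A at the 5′ end the median was 107 bp before it (quartiles at −229 and 41 bp), so these 3 lay on the upstream side of the middle and within the quartiles. An identical edge with POLR2A, as at CCNB1, was found for 9.55% of the POLR1A peaks that overlapped POLR2A. The cause of such shared edges was not tested.

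The 4 genes with POLR1A were also the 4 with the highest POLR2A values, and across all genes POLR1A was more often found where POLR2A was stronger. Of 2324 protein-coding genes with a POLR2A value of 12 or more at an end, 53.2% had POLR1A. Of the 10 genes 5 fell in that range, CDK2 (18.2), CDK4 (17.5), CDC20 (13.8), CCNB1 (13.7) and CCNB2 (12.7), and all but CCNB2 had POLR1A. CDK2 stood there through the peaks beyond its upper end, which also covered an end of RAB5B. When the summit itself had to lie within 1 kb, CDK2 had neither polymerase. Between 6 and 9 the share over all genes was 13.3%, and CCNA2, CDK1 and CCND1 in this range had none. Below 6 it was 5.87% and without POLR2A 0.748%, the ranges of CCNE1 and CDK6. Counted at every annotated start, CDK6 also had POLR2A (6.07, at its inner start). POLR2A was then at 8 of the 8 genes with listed starts and POLR1A at 3. The shares of all protein-coding genes counted in this way were not computed. With so few genes in each range, a count of 4 of 5 that includes CDK2 is, beside 53.2%, a description only. H3K4me3 did not order the genes in this way: CCNB2 (18.0) and CDK1 (13.9), without POLR1A, had higher H3K4me3 values than CDC20 (12.7) and CDK4 (10.1), with it.

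**Figure D4:**
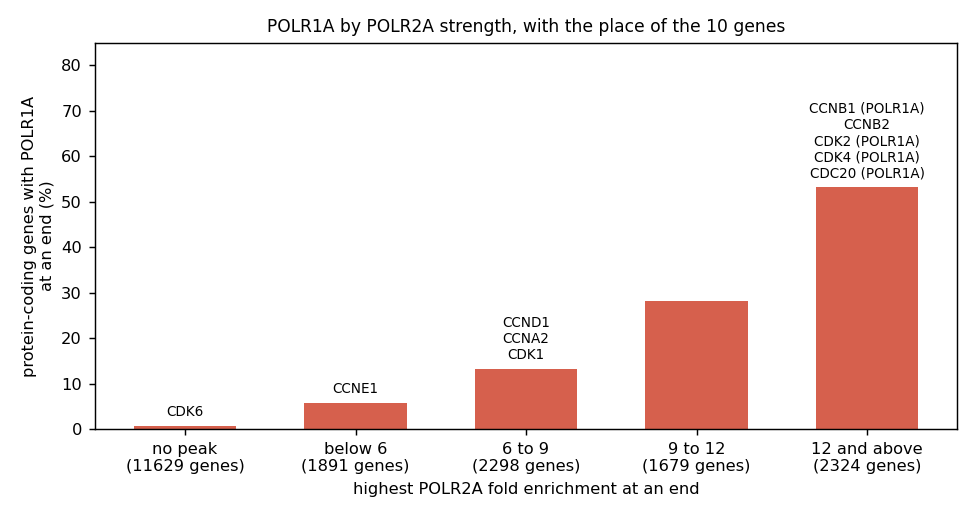
Share of protein-coding genes with POLR1A at an end (vertical axis, percent) by the highest POLR2A fold enrichment at an end (horizontal axis, with the number of genes in each range). The 10 genes are named above the bar of their range, with those that had POLR1A marked. The bars rise from 0.748% to 53.2%, and every marked gene stands in the last range. CDK2 stands there through peaks that also covered an end of RAB5B.

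The genes outside the 10 whose values over the 4 lists came closest were found by the distance in log2(1 + fold enrichment). For CCNB1 the closest was USP8 (POLR1A 8.07, POLR2A 14.0, H3K4me3 19.2). For CDC20 the closest were ATG9A (8.50, 13.9 and 12.7) and HIBCH (7.85, 13.5 and 12.9). ARL16 and HGS, neighbours with the same 3 values (10.5, 18.5 and 10.3), were closest to CDK4. For CDK2 they were its neighbour RAB5B, through the peaks just described, and PPP2R1A (6.56, 17.8 and 14.3).

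The promoter motifs are matches of letters in a 300-base window, not measured sites. The CHR letters TTTGAA were found in 3 of the 8 genes with a promoter sequence, CCNB2, CDK1 and CDC20. Of all 22140 windows 12.4% held these letters. Only this form of the CHR was sought, so a gene without a match is not shown to lack the element. The CCAAT box was found in 5 of 8 (34.6% of windows). E2F letters were found in CDK1 alone (4.11%) and the TATA box (TATAAA) in none (9.47%). The E-box, chosen after the promoters were read, was found in CCNB1, CDK4 and CDK6 (8.34%). In CDK6 it lay 30 bases after the outer start, under no peak. These counts are of genes and the shares of windows, and CDK1 and CDK6 had 2 windows each. By window the CHR letters were in 4 of 10 and the CCAAT box in 6 of 10. The core of the cell cycle-dependent element (GGCGG, 71.6%) and the SP1 box (GGGCGG, which holds GGCGG, 56.3%) were found in all 8 genes, in 10 and 9 of the 10 windows. CDK2 had no promoter sequence in the table. The other 3 genes with POLR1A shared no motif among these beyond the last 2: CDK4 had E-boxes and no CCAAT box, CDC20 had CCAAT boxes and CHRs, and CCNB1 had CCAAT boxes and 1 E-box. CCNB2 and CDK1 held the same CHR and CCAAT letters as CDC20 without POLR1A.

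The wider cell cycle machinery was described from 10 lists by role with 103 genes in all. POLR2A was at an end of 83 (80.6%, against 41.3% of all protein-coding genes) and H3K4me3 at 94 (91.3%, against 54.6%). H3K9me3 was at 3 (2.91%), near the 2.7% of all genes, and POLR1A at 29 (28.2%, against 11.2%). All 29 had POLR2A at the same end, and 9 of the 29 POLR1A peaks also lay within 1 kb of an end of another protein-coding gene. POLR1A again followed POLR2A strength: of 38 with a POLR2A value of 12 or more, 21 had POLR1A, close to the 53.2% of all genes in that range, and of the 20 without POLR2A none had it. The median POLR1A value of the 29 was 6.08, the same as over all genes with POLR1A, and the median over the 4 was 8.26.

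By role, POLR1A was found most often at regulators of CDK phosphorylation and binding, 7 of 10, against 11.2% of all protein-coding genes. Among them were CKS2 (9.16), a small CDK-binding protein gene, and CKS1B (6.08), its relative, which shared its peak with SHC1. PLK1, the mitotic kinase that promotes CDK1 activation, had POLR1A at 5.87 beside a weak POLR2A value of 5.71, and WEE1, the kinase that restrains CDK1, had 3.64, the lowest of the 29. APC/C genes had POLR1A in 7 of 19, with FBXO5, its inhibitor, at 8.59, and FZR1, the activator that succeeds CDC20, at 8.16. Transcriptional cyclins and CDKs had it in 5 of 11, led by the Mediator kinase gene CDK19 (7.79, shared with AMD1) and CCNT1 (6.09). The SCF ligase list, which also holds CUL3, a cullin gene outside SCF, had 3 of 7, with BTRC at 8.64 and CUL3 at 5.88. Checkpoint genes had 3 of 10, with MAD2L1BP at 6.91 and BUB3 at 6.12. RB, E2F and DREAM factors had 3 of 20, with LIN52, a MuvB subunit gene, at 9.81 (shared with ALDH6A1) and E2F3 at 8.59 (shared with LOC124901482). Mitotic kinases and passengers had 1 of 7, NEK2 at 5.03. The shares of these last 2 lists, 15% and 14.3%, are near the 11.2% of all protein-coding genes. The counts by list include peaks shared with another protein-coding gene, also at genes not named here, such as regulators of CDK phosphorylation.

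No POLR1A peak was found at the other cell cycle cyclins (0 of 6), the CDK-activating kinase and other CDKs (0 of 5) or the CDK inhibitors (0 of 8). With 11.2% of all protein-coding genes carrying POLR1A, counts of 0 in lists this short are near the background. POLR2A was at 3 of 6, 2 of 5 and 7 of 8 of these, where 41.3% of all protein-coding genes had it. The highest values were at CCNE2 (14.5), CCNH (17.1) and CDKN2B (14.4). CCND2, CCNA1 and CCNB3, relatives of the cyclins above, had none of the 4 targets at an end, while CDK7, the kinase that activates CDKs, had H3K4me3 at 28.7 and no polymerase. CDKN1A, the p53-induced inhibitor gene, had POLR2A at 4.37 and no H3K4me3. H3K9me3 at an end was found at LIN52 (5.86), NEK2 (4.40) and ANAPC4 (3.59), and LIN52 and NEK2 carried all 4 targets at their ends.

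**Figure D5:**
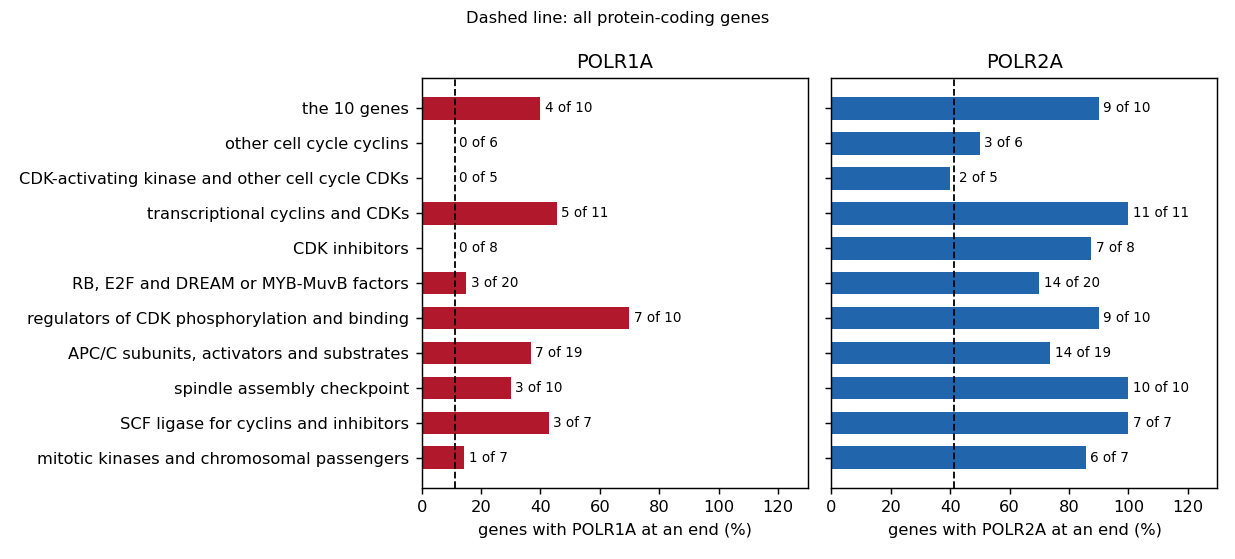
Share of genes with POLR1A (left) and POLR2A (right) at an end (horizontal axes, percent) for the 10 genes and the 10 lists by role, with counts beside the bars. Dashed lines are all protein-coding genes (11.2% and 41.3%). Regulators of CDK phosphorylation and binding reach 7 of 10 for POLR1A, and 3 lists of 5 to 8 genes stand at 0. Counts include peaks shared with another protein-coding gene.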

How the data were processed

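CUT&Tag peak lists for POLR1A, POLR2A, H3K9me3 and H3K4me3 in HCT116 cells were analysed. The peak names hold the word macs2. As deposited by the authors, each peak has a fold enrichment (a linear ratio), a −log10 q and a summit offset. The sources used here do not say whether replicates were pooled, what served as control, which settings were chosen or how repeated reads were handled. Of the tools in the submitters' processing notes, SAMtools 1.6, STAR and deepTools 3.1.1 handle aligned reads, with GRCh38 and hg38 as the builds, and no step is assigned to any of them.

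Peaks on chromosomes 1 to 22 and X were set against RefSeq gene ends (GRCh38.p14, Python 3.11.15, pandas 2.3.3). Exons were not used. Of the 10 genes 8 had a promoter sequence and strand. The overlap code was tested on simulated peaks. No test was made, since there is 1 list per target. The members and lists were chosen with earlier results of these data known, and the E-box after the promoters were read. Named genes were all members, up to 2 per list by POLR1A or 1 by POLR2A, any with H3K9me3, neighbours sharing a peak and the 2 nearest by pattern, 1 of which is not reported here, while CDK7, CDKN1A, CCND2, CCNA1, CCNB3, PLK1, WEE1 and the marker genes were named after their values were seen.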

Additional observations from a re-analysis of the deposited data

How the results depend on the processing

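Counts of the 10 genes were recomputed with windows of 500 bp and 2 kb, with only peaks of a −log10 q of at least 5, with every list reduced to its 3812 strongest peaks, at the 5′ end only, and with an overlap of at least 50% of the shorter peak. The summit rule and every annotated start were added after the data were seen. POLR1A ranged from 3 to 4 genes, and the gene in question was CDK2. With the 500 bp window, and likewise by the summit rule, H3K4me3 fell from 10 to 9 genes and POLR2A from 9 to 8. Shares of all genes were not computed for the 500 bp and 2 kb windows. With lists of equal length, POLR2A was at 5 genes, H3K4me3 at 4, and both polymerases with H3K4me3 at 2 (CCNB1 and CDK2). Fewer peaks remain by construction there, and 17.3% and 17.8% of all genes then had POLR2A and H3K4me3. The share of all genes with both polymerases and H3K4me3 in that setting was not computed. For CDK2 the peaks in question also covered an end of RAB5B. At a −log10 q of at least 5 all 4 genes kept POLR1A, and 5.36% of all genes had it. Counts of H3K9me3 were 0 in every setting run. No paired analysis was possible because the lists carry no replicate numbers, and no replicate could be left out for the same reason. An absent peak says only that none passed the authors' threshold at an unknown depth.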
